A study of Mus musculus with 3 samples.

Results

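Genes for the uptake of fatty acids and their storage in lipid droplets were followed in cells of the mouse aorta. The group holds 10 genes of the 32285 in the deposited counts, namely Lpl, Gpihbp1, Angptl4, Cd36, Slc27a1, Fabp4, Pparg, Plin2, Plin3 and Pnpla2. They were chosen by symbol for their known roles, with earlier results of these data known. Single-cell RNA was measured in 3 droplet libraries, called APOE2, APOE3 and APOE4 after the human gene that stands in place of mouse Apoe at its own locus in every cell of the animal, on a C57BL/6J background. All animals were male and ate a Western diet (42% of calories from fat, 0.2% cholesterol) for 16 weeks from 12 weeks of age, and no library came from mice with mouse Apoe or on chow. Cells of the whole aorta, from the arch to the iliac bifurcation, were pooled by genotype before loading (6 animals for the APOE2 library, 5 for the APOE3 library and 7 for the APOE4 library), so each genotype is 1 library and the mice cannot be told apart.

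Triglyceride in circulating lipoproteins is split by lipoprotein lipase (Lpl), which acts on the lumenal face of capillaries where Gpihbp1 carries it, and Angptl4 inhibits the enzyme. The freed fatty acids enter cells with the help of Cd36 and the transport protein Slc27a1, are bound in the cytosol by Fabp4, and act on the nuclear receptor Pparg. Surplus is stored as triglyceride and cholesterol ester in droplets coated by Plin2 and Plin3, from which Pnpla2 (adipose triglyceride lipase) starts the release of fatty acids. In the diseased artery wall these genes are best known from macrophage foam cells, and in normal arteries from the capillaries of the outer wall and from the surrounding fat.

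The cells kept (at least 200 detected genes and under 20% mitochondrial transcripts) numbered 11772, 6737 and 8248 in the APOE2, APOE3 and APOE4 libraries, with medians of 12047, 17618 and 13521.5 unique molecular identifiers (UMIs, one for each captured transcript) per cell. Pairs of libraries shared 14 to 27 cell barcodes. Clustering, from which the 10 genes were left out, gave 23 clusters, and 14 of them were named from markers. The 9 clusters without a name held 3092, 2143 and 1672 cells of the APOE2, APOE3 and APOE4 libraries (26.3%, 31.8% and 20.3%). Each of them kept at least 8 of 10 smooth muscle markers. The smooth muscle-like class therefore leaves out many cells with such transcripts, in shares that differ between the libraries. Smooth muscle-like cells were the most numerous (6736, 3762 and 5071), followed by fibroblast-like (1145, 636 and 933), macrophage-like (418, 116 and 131), T lymphocyte-like (130, 24 and 114), B lymphocyte-like (34, 10 and 279), endothelial-like (161, 36 and 41) and neutrophil-like cells (56, 10 and 7), in the order APOE2, APOE3, APOE4, which is kept below. Adipocyte markers were nearly absent, since the 8 genes of that list summed to between 4.0 and 7.0 CPM (defined below) in the smooth muscle-like and fibroblast-like cells of the 3 libraries, and leptin (Lep) had no UMI in fibroblast-like cells of any library.

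Levels are UMIs summed over the cells of a class per 1000000 UMIs of those cells (CPM), with exact Poisson 95% intervals. Ratios between libraries are log2 ratios of CPM with exact conditional binomial 95% intervals. With 1 library for each genotype there was no replicate check and no test, and all intervals cover counting error only. A gene was counted as past 2-fold when a pair of libraries held at least 50 of its UMIs and each held at least 30 cells of the class. The share of all genes of that class that were past 2-fold the same way is given as a background.

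The promoters of Plin2 and Cd36 are shown because these 2 members were at their highest, or among their highest, in macrophage-like cells, and because both genes are textbook targets of Pparg and its relatives, which bind repeats of AGGTCA together with a retinoid X receptor. RefSeq (GRCm38.p6) gave a promoter for 6 of the 10 genes, 10 promoters in all, and none for Lpl, Gpihbp1, Fabp4 or Angptl4. The 250 bases before the start site are printed 5′ to 3′ on the gene's strand, and capitals mark the half-site AGGTCA or its reverse complement TGACCT. The Plin2 stretch lies at chr4:86670060-86670309 and the Cd36 stretch at chr5:17835897-17836146, both on the minus strand. The RefSeq start used for Cd36 lies inside the extent of the gene in the annotation given with its values, so its stretch belongs to an internal start and not to the outermost one.
Plin2: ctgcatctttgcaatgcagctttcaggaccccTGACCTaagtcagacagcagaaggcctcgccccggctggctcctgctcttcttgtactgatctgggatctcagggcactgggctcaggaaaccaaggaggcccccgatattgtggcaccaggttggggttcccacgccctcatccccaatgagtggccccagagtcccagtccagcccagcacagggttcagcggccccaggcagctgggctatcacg
Cd36: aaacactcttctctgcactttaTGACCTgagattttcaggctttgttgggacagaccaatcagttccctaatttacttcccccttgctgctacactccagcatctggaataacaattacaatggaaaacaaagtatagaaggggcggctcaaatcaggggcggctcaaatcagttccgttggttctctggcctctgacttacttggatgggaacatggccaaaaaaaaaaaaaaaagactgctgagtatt
The match lies 218 to 213 bases before the start of Plin2 and 228 to 223 bases before that internal start of Cd36. The stretches searched were longer than those printed and ran past the start site, over chr4:86670010-86670309 for Plin2 and chr5:17835847-17836146 for Cd36. AGGTCA on either strand was found in 4607 of 32851 promoters of this table (14.0%), so a match is common. Of the 3 Pparg promoters, 1 held AGGTCA at -28 to -23 and another at -9 to -4. The direct repeat AGGTCANAGGTCA, searched on both strands, was in 11 of 32851 promoters (0.0335%) and in none of the 10. The E-box CACGTG, which reads the same on both strands, was in 1978 of 32851 promoters (6.02%) and in 1 promoter of Slc27a1. These are matches of letters and not measured sites, and the absence of a match says nothing about a factor.

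**Figure D1:**
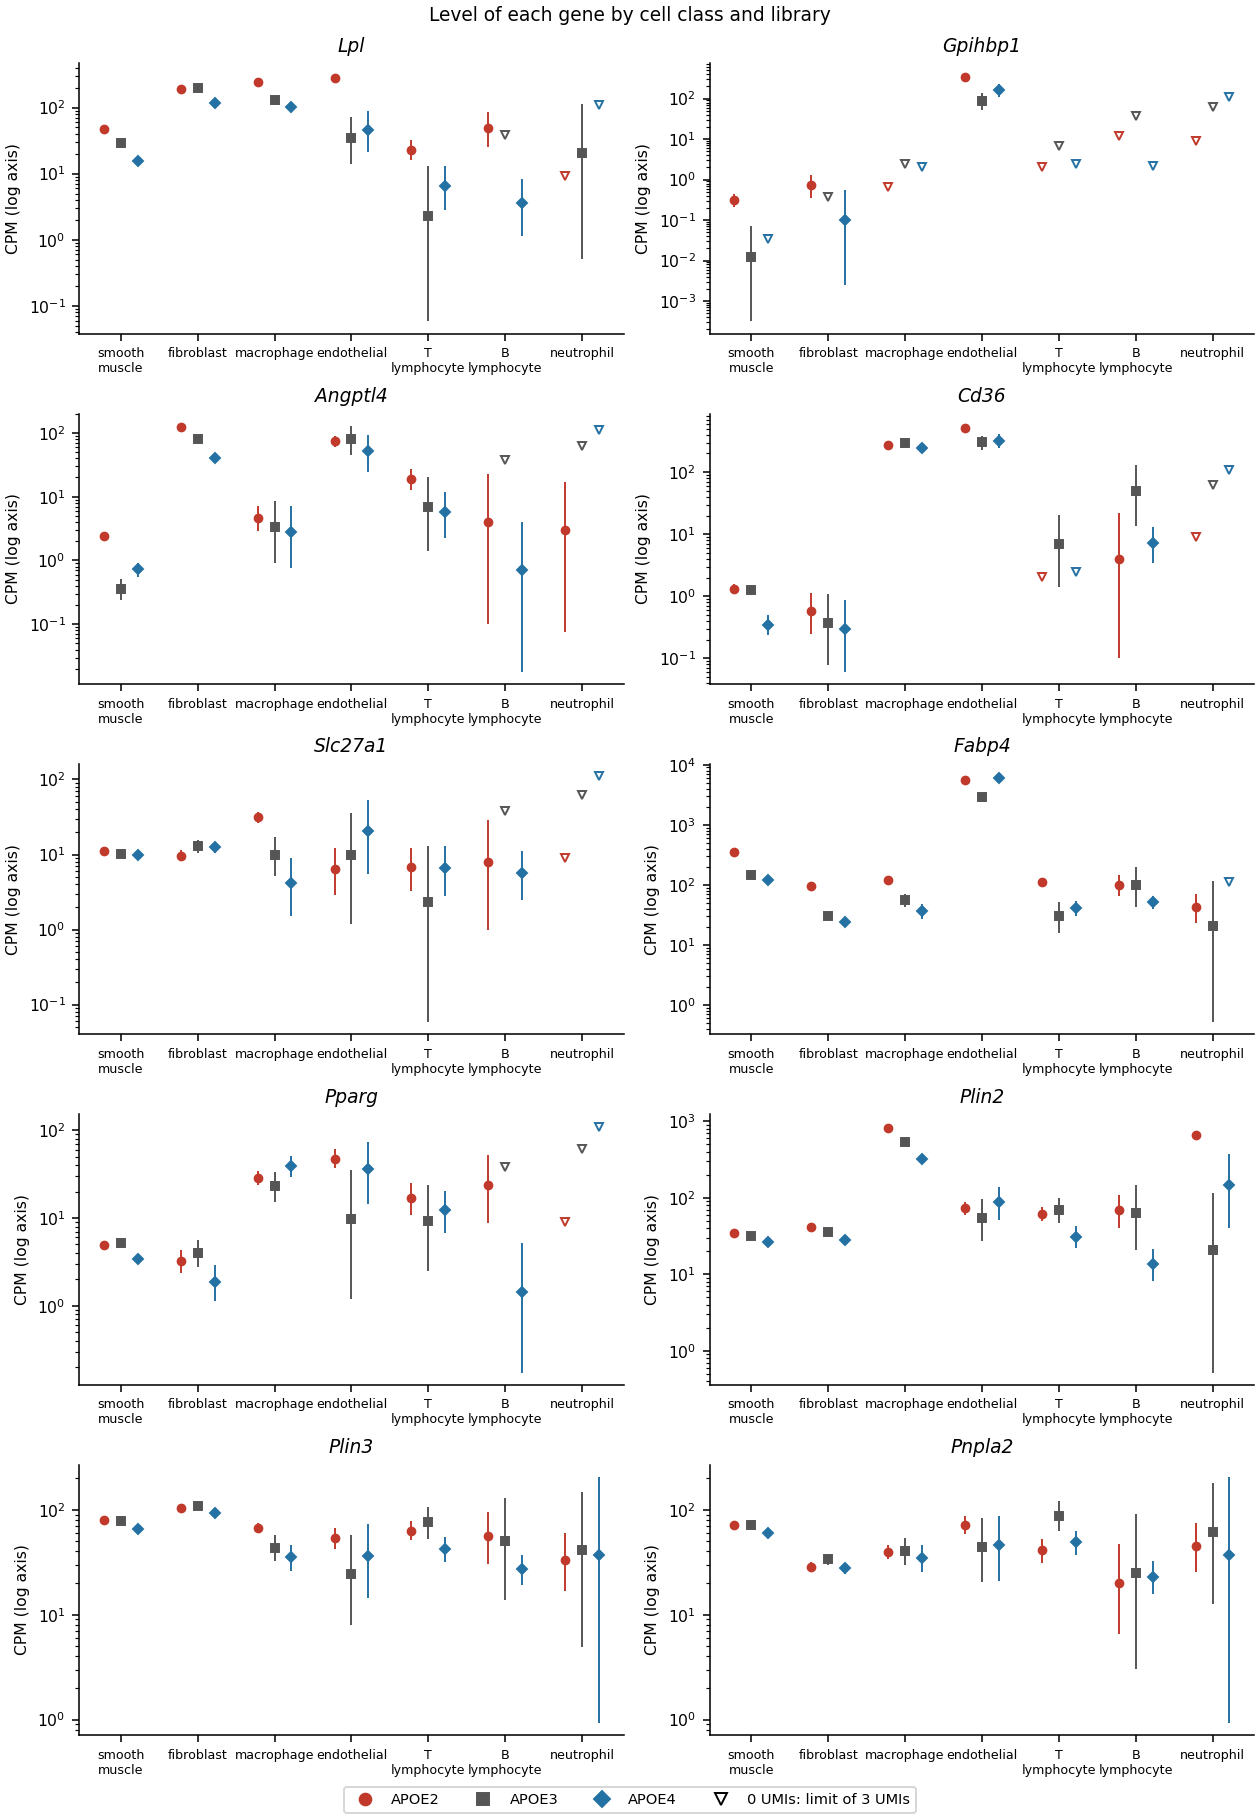
Level of each of the 10 genes (CPM, log axis) in each of the 7 named cell classes of the APOE2, APOE3 and APOE4 libraries, with exact Poisson 95% intervals that cover counting error only. Open triangles mark 0 UMIs and stand at the level that 3 UMIs would give. Plin2 is highest in macrophage-like cells of each library, Fabp4 and Gpihbp1 in endothelial-like cells, and Plin3 and Pnpla2 differ least between classes.

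Lpl (ENSMUSG00000015568, chromosome 8, 68880491 to 68907448, plus strand, GRCm38) was lower in the APOE4 library than in the APOE2 library in smooth muscle-like and fibroblast-like cells. In macrophage-like cells its CPM was lower too, but the share of cells that carried it was not. In smooth muscle-like cells Lpl was at 47.4 CPM (46.0 to 48.7), 29.1 CPM (27.9 to 30.3) and 15.5 CPM (14.7 to 16.4). The 3 libraries thus fell in the order APOE2, APOE3, APOE4 with no overlap of their counting intervals. The log2 ratio was 0.71 (0.63 to 0.78) for APOE2 to APOE3, -0.91 (-1.003 to -0.81) for APOE4 to APOE3 and 1.61 (1.52 to 1.70) for APOE2 to APOE4. All 7 smooth muscle-like clusters had the same order, with ratios of APOE2 to APOE3 between 0.39 and 1.23 and of APOE4 to APOE3 between -1.01 and -0.80. After each cell was thinned to 1000 UMIs, Lpl was detected in 3.94% (3.48 to 4.43), 2.67% (2.18 to 3.24) and 1.47% (1.16 to 1.84) of smooth muscle-like cells, against 37.7%, 32.7% and 17.3% without thinning. T lymphocyte-like cells, which should lack Lpl, gave 1 of 127, 0 of 24 and 0 of 111 thinned cells, and 5.38%, 4.17% and 4.39% without thinning. Median UMIs per cell were 13572.5, 19967.5 and 15359 in smooth muscle-like and 5687, 8682 and 6538.5 in T lymphocyte-like cells.

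Fibroblast-like cells held more Lpl than smooth muscle-like cells in each library, at 189 CPM (181 to 196), 200 CPM (190 to 210) and 117 CPM (111 to 124). Here the APOE2 and APOE3 libraries overlapped in their intervals and the APOE4 library was below both. Its log2 ratio was -0.08 (-0.17 to 0.01) for APOE2 to APOE3, -0.77 (-0.88 to -0.66) for APOE4 to APOE3 and 0.68 (0.59 to 0.78) for APOE2 to APOE4. Both fibroblast-like clusters had APOE4 lowest.

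Macrophage-like cells held 242 CPM (228 to 257), 129 CPM (110 to 151) and 103 CPM (87.3 to 121) of Lpl, but few cells carried it. A single cell held 24.7%, 76.4% and 12.1% of these UMIs. The log2 ratio was 0.91 (0.66 to 1.16) for APOE2 to APOE3 and -0.32 (-0.66 to 0.01) for APOE4 to APOE3. With the cell of the most UMIs left out of each library these became 2.56 and 1.55, so the direction of APOE4 to APOE3 rested on 1 cell of the APOE3 library. The ratio of APOE2 to APOE4 was 1.23 (0.98 to 1.49) and was 0.14 when the CPM of single cells was averaged. Thinned shares of macrophage-like cells with Lpl were 8.23% (5.77 to 11.3), 3.45% (0.947 to 8.59) and 8.46% (4.30 to 14.6), or 29.2%, 20.7% and 31.3% without thinning.

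Gpihbp1 (ENSMUSG00000022579, chromosome 15, 75596628 to 75599481, plus strand), which anchors Lpl on capillary endothelium, was detected mainly in endothelial-like cells, at 341 CPM (311 to 373), 88.8 CPM (52.6 to 140) and 164 CPM (112 to 231). These were 479 UMIs in 44 of 161 cells, 18 UMIs in 2 of 36 cells and 32 UMIs in 5 of 41 cells. Elsewhere it was near 0, with 32, 1 and 0 UMIs in all smooth muscle-like cells, 10, 0 and 1 in fibroblast-like cells and 0 in macrophage-like and T lymphocyte-like cells of every library. A count of 0 allows up to 0.668, 2.47 and 2.08 CPM in macrophage-like cells. No ratio is given for these classes.

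Angptl4 (ENSMUSG00000002289, chromosome 17, 33773750 to 33781830, minus strand), the secreted inhibitor of Lpl, was highest in fibroblast-like and endothelial-like cells. In fibroblast-like cells it was at 123 CPM (117 to 129), 79.6 CPM (73.6 to 86.0) and 40.8 CPM (37.0 to 44.9), again in the order APOE2, APOE3, APOE4 with separate intervals. On the log2 scale this was 0.62 (0.49 to 0.76) for APOE2 to APOE3, -0.96 (-1.15 to -0.78) for APOE4 to APOE3 and 1.59 (1.43 to 1.75) for APOE2 to APOE4. Thinned to 1000 UMIs, 9.96%, 6.45% and 4.39% of fibroblast-like cells had an Angptl4 UMI (50.6%, 50.5% and 28.6% without thinning), and 0 of 127, 0 of 24 and 0 of 111 T lymphocyte-like cells had one, which allows shares up to 2.36%, 12.5% and 2.70%.

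The difference in Angptl4 was not the same in the 2 fibroblast-like clusters, although that difference was not tested. Cluster 11 held 166 CPM, 89.45 CPM and 38.2 CPM, with a log2 ratio of APOE2 to APOE3 of 0.89 (0.69 to 1.11). Cluster 5 held 78.6 CPM, 75.2 CPM and 41.5 CPM, with a ratio of 0.07 (-0.12 to 0.25). Cluster 11 also made up 44.4%, 27.0% and 19.9% of the fibroblast-like cells, so the level of the whole class mixed the 2 clusters in different proportions. The ratio of APOE4 to APOE3 was -0.86 (-1.07 to -0.64) in cluster 5 and -1.23 (-1.60 to -0.87) in cluster 11.

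In smooth muscle-like cells Angptl4 was at only 2.38 CPM (2.09 to 2.70), 0.362 CPM (0.242 to 0.519) and 0.723 CPM (0.557 to 0.923), which were 241, 29 and 64 UMIs. The log2 ratio was 2.72 (2.16 to 3.33) for APOE2 to APOE3 and 1.00 (0.35 to 1.69) for APOE4 to APOE3, the latter just under 2-fold. T lymphocyte-like cells held 18.8 CPM, 6.93 CPM and 5.70 CPM, which is above the smooth muscle level in every library, so the class as a whole was not above the level in cells that should lack the gene. T lymphocyte-like cells also carried fibroblast markers, which summed over 10 genes to 4510 CPM, 1694 CPM and 1077 CPM, and the part of fibroblast RNA in their Angptl4 was not tested. Of the 241 UMIs in the APOE2 library, 165 lay in cluster 1, where Angptl4 was at 6.54 CPM against 0.563 CPM in APOE3. T lymphocyte-like cells had 42.9% of their 28 UMIs in the APOE2 library in 1 cell.

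**Figure D2:**
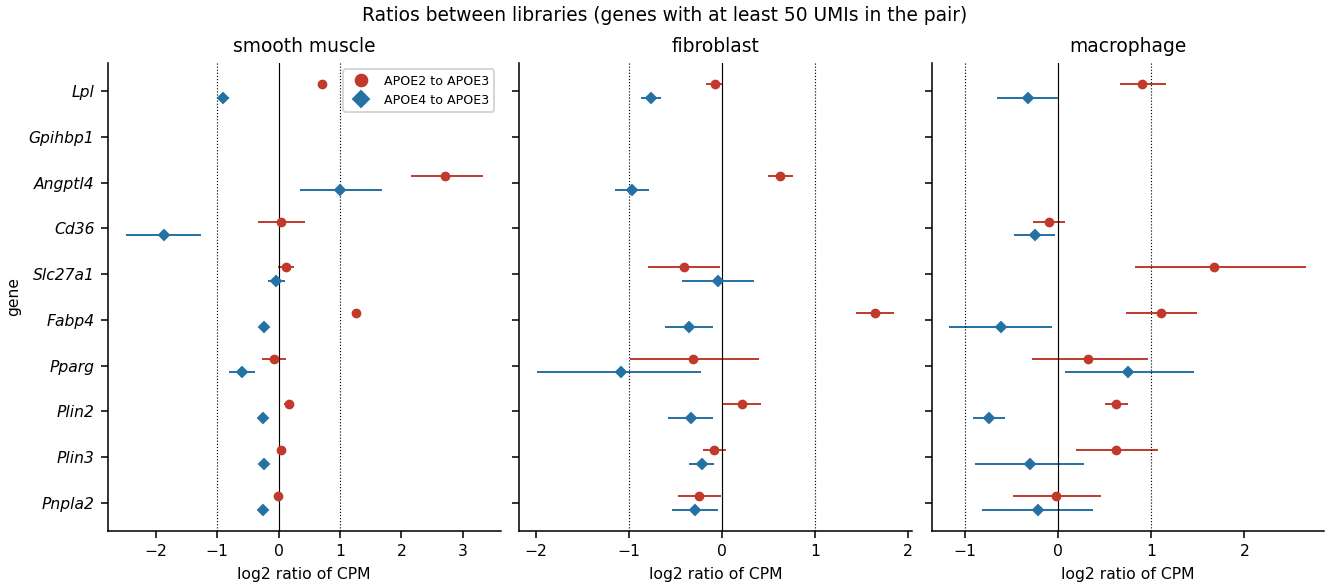
Log2 ratio of CPM of the APOE2 and of the APOE4 library to the APOE3 library for the members in smooth muscle-like, fibroblast-like and macrophage-like cells, with exact conditional binomial 95% intervals that cover counting error only and dotted lines at 2-fold. A gene with fewer than 50 UMIs in the pair has no point, and the horizontal axes differ in range. In smooth muscle-like cells Fabp4 and Angptl4 lie past 2-fold for APOE2 to APOE3, at 1.27 and 2.72, and Cd36 for APOE4 to APOE3, at -1.86.

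Cd36 (ENSMUSG00000002944, chromosome 5, 17781690 to 17888801, minus strand), a scavenger receptor that takes up oxidized lipoprotein as well as fatty acids, was a gene of macrophage-like and endothelial-like cells. In macrophage-like cells it was at 271 CPM (256 to 286), 290 CPM (260 to 322) and 243 CPM (218 to 270), and was found in 207 of 418, 76 of 116 and 91 of 131 cells. These levels gave a log2 ratio of -0.10 (-0.27 to 0.08) for APOE2 to APOE3, -0.25 (-0.47 to -0.04) for APOE4 to APOE3 and 0.15 (-0.02 to 0.33) for APOE2 to APOE4. Cd36 in the whole macrophage class therefore differed little between the libraries, although Plin2 in the same cells differed more.

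Smooth muscle-like cells held 133, 102 and 31 Cd36 UMIs, or 1.31 CPM, 1.27 CPM and 0.350 CPM. The log2 ratio was -1.86 (-2.49 to -1.27) for APOE4 to APOE3 and 0.04 (-0.34 to 0.43) for APOE2 to APOE3. In the APOE3 library 63 of the 102 UMIs lay in 20 of the 122 cells of 1 small cluster, cluster 15, at 25.6 CPM, where the APOE2 and APOE4 libraries had 4.43 CPM and 4.32 CPM. The other 6 smooth muscle-like clusters held too few UMIs for a ratio. T lymphocyte-like cells held 0, 3 and 0 Cd36 UMIs, and a count of 0 there allows 2.02 CPM in APOE2 and 2.44 CPM in APOE4, so the level of the whole smooth muscle class was not above that of T lymphocyte-like cells beyond counting error. Cluster 15 of the APOE3 library (19.6 to 32.7) stood above the 3 UMIs of that library's T lymphocyte-like cells, which all lay in 1 cell (6.93 CPM, 1.43 to 20.3), with intervals that just overlapped. When all clusters that kept smooth muscle markers were summed, the ratio of APOE2 to APOE3 was 1.06 and that of APOE4 to APOE3 -1.23. Fibroblast-like cells had 8, 3 and 3 UMIs.

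Slc27a1 (ENSMUSG00000031808, chromosome 8, 71568882 to 71587302, plus strand), the fatty acid transport protein also called FATP1, was similar in smooth muscle-like cells, at 11.01 CPM (10.4 to 11.7), 10.1 CPM (9.42 to 10.8) and 9.82 CPM (9.17 to 10.5), and in fibroblast-like cells, at 9.65 CPM, 12.8 CPM and 12.4 CPM. In macrophage-like cells it was higher in the APOE2 library, at 31.6 CPM (26.6 to 37.3), than in APOE3, at 9.88 CPM (5.11 to 17.3), or in APOE4, at 4.16 CPM (1.53 to 9.05). These were 142 UMIs in 82 cells, 12 UMIs in 9 cells and 6 UMIs in 5 cells. Between libraries the log2 ratio was 1.68 (0.83 to 2.66) for APOE2 to APOE3 and 2.93 (1.77 to 4.40) for APOE2 to APOE4. The former was 0.86, and no longer past 2-fold, when the CPM of single cells was averaged.

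Fabp4 (ENSMUSG00000062515, chromosome 3, 10204088 to 10208576, minus strand), the cytosolic fatty acid binding protein of adipocytes, macrophages and capillary endothelium, was higher in the APOE2 library in the whole smooth muscle class. Smooth muscle-like cells held 348 CPM (344 to 351), 145 CPM (142 to 147) and 123 CPM (120 to 125). The APOE2 library was far above the other two, which differed little. The log2 ratio was 1.27 (1.24 to 1.30) for APOE2 to APOE3, -0.24 (-0.28 to -0.20) for APOE4 to APOE3 and 1.51 (1.47 to 1.54) for APOE2 to APOE4. All 7 smooth muscle-like clusters were higher in APOE2 than in APOE3, from 0.55 in cluster 15 to 1.91 in cluster 1, and 4 of the 7 were past 2-fold. Cluster 1, which was led by Tnnt2, Des and Hand2 and made up 27.4%, 11.6% and 8.80% of the smooth muscle-like cells, held 490 CPM, 131 CPM and 132 CPM.

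Thinned to 1000 UMIs, Fabp4 was found in 26.2% (25.2 to 27.3), 12.3% (11.2 to 13.3) and 10.7% (9.86 to 11.6) of smooth muscle-like cells, against 78.9%, 71.9% and 64.4% without thinning. T lymphocyte-like cells gave 3.94% (1.29 to 8.95), 4.17% (0.105 to 21.1) and 2.70% (0.561 to 7.70), against 16.2%, 12.5% and 17.5%. Smooth muscle-like cells were thus above the T lymphocyte-like background in the APOE2 and APOE4 libraries, and in APOE3, with 24 T lymphocyte-like cells, their intervals overlapped. Per 100 UMIs of Acta2, the smooth muscle actin gene, there were 1.54, 0.529 and 0.472 UMIs of Fabp4 in smooth muscle-like cells and 1.81, 0.899 and 0.486 in T lymphocyte-like cells. Whether free RNA from endothelial-like cells added to these levels was not tested. Gpihbp1, which endothelial-like cells held at 6.04, 3.06 and 2.70 UMIs per 100 of Fabp4, was at 0.0907 per 100 of Fabp4 in the smooth muscle-like cells of the APOE2 library.

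Fibroblast-like cells held 94.8 CPM (89.8 to 100), 30.4 CPM (26.7 to 34.5) and 23.7 CPM (20.8 to 26.9) of Fabp4, with a log2 ratio of APOE2 to APOE3 of 1.64 (1.44 to 1.84). T lymphocyte-like cells held 112 CPM (95.3 to 130), 30.04 CPM (16.0 to 51.4) and 40.7 CPM (30.2 to 53.7). The fibroblast level was not above that of T lymphocyte-like cells beyond counting error in any library, and in APOE4 it lay below, with separate intervals. The thinned share of fibroblast-like cells (4.98%, 1.57% and 1.29%) was within the intervals of T lymphocyte-like cells. By level and by share Fabp4 in fibroblast-like cells was thus not above that background. The ratio of APOE2 to APOE3 was 1.97 without the cells that carry smooth muscle transcripts. Macrophage-like cells held 118 CPM (108 to 129), 55.2 CPM (42.8 to 70.1) and 36.0 CPM (26.9 to 47.3), in 69 of 418, 13 of 116 and 16 of 131 cells. Their thinned shares of 4.12%, 0.862% and 1.54% were also no higher than in T lymphocyte-like cells beyond counting error. The ratio of APOE2 to APOE3 was 1.10 (0.73 to 1.49), and 3.21 without the cells that carry smooth muscle transcripts. Per 100 UMIs of Acta2 there were 4.42, 0.834 and 0.798 UMIs of Fabp4 in macrophage-like and 5.39, 1.05 and 0.971 in fibroblast-like cells. In the APOE2 library both were thus above the 1.81 of T lymphocyte-like cells. T lymphocyte-like cells carried more Acta2 than fibroblast-like cells, at 6171 CPM, 3341 CPM and 8377 CPM against 1758 CPM, 2891 CPM and 2446 CPM. At least 100 UMIs of smooth muscle markers were found in 16.2%, 25% and 18.4% of T lymphocyte-like and 8.38%, 8.33% and 6.97% of fibroblast-like cells. The part of smooth muscle RNA in the Fabp4 of T lymphocyte-like cells was not tested.

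Pparg (ENSMUSG00000000440, chromosome 6, 115360951 to 115490399, plus strand), the receptor that drives fat storage, was low. Smooth muscle-like cells held 4.87 CPM (4.45 to 5.32), 5.12 CPM (4.64 to 5.64) and 3.39 CPM (3.02 to 3.79), so that APOE4 lay below APOE3 by a log2 ratio of -0.60 (-0.82 to -0.38). Fibroblast-like cells held 3.22 CPM, 3.99 CPM and 1.87 CPM (45, 32 and 19 UMIs), and there the ratio of APOE4 to APOE3 was -1.09 (-1.99 to -0.23). The 32 and 19 UMIs lie just above the minimum of 50. Macrophage-like cells were higher, at 28.7 CPM (24.0 to 34.1), 23.1 CPM (15.3 to 33.3) and 38.8 CPM (29.3 to 50.4), and their intervals overlapped. T lymphocyte-like cells held 16.8 CPM (10.9 to 24.8), 9.24 CPM (2.52 to 23.7) and 12.2 CPM (6.83 to 20.1), above the smooth muscle and fibroblast levels in each library. The APOE3 value was 4 UMIs, and in APOE4 1 cell held 11 of the 15 UMIs. The smooth muscle and fibroblast levels were thus not above this background, which itself rests on few UMIs.

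Plin2 (ENSMUSG00000028494, chromosome 4, 86648386 to 86670060, minus strand), the droplet coat protein that marks lipid-laden cells, was highest in macrophage-like cells. There it was at 822 CPM (796 to 849), 533 CPM (493 to 575) and 319 CPM (290 to 349). The libraries fell in the order APOE2, APOE3, APOE4 with separate intervals. Log2 ratios were 0.63 (0.50 to 0.75) for APOE2 to APOE3, -0.74 (-0.92 to -0.57) for APOE4 to APOE3 and 1.37 (1.23 to 1.51) for APOE2 to APOE4. When the CPM of single cells was averaged, so that cells with many UMIs had no more weight than others, the ratios were 0.17 for APOE2 to APOE3, -0.59 for APOE4 to APOE3 and 0.76 for APOE2 to APOE4. Thinned shares of macrophage-like cells with Plin2 were 38.0% (33.3 to 42.9), 25.9% (18.2 to 34.8) and 30% (22.3 to 38.7), or 79.7%, 75.9% and 74.0% without thinning, against 7.09%, 12.5% and 2.70% of thinned T lymphocyte-like cells (31.5%, 50% and 21.1%), which use Plin2 themselves.

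In smooth muscle-like and fibroblast-like cells Plin2 differed less than in macrophage-like cells. Smooth muscle-like cells held 34.9 CPM (33.8 to 36.1), 31.2 CPM (29.99 to 32.4) and 26.0 CPM (24.99 to 27.1). The order of the libraries was the same as in macrophage-like cells and held in all 7 clusters, with ratios of APOE2 to APOE3 of 0.02 to 0.39 and of APOE4 to APOE3 of -0.56 to -0.02. Fibroblast-like cells held 41.1 CPM, 35.5 CPM and 28.1 CPM. Neutrophil-like cells of the APOE2 library held 656 CPM (571 to 749), or 216 UMIs in 40 of 56 cells, and the 10 and 7 such cells of the APOE3 and APOE4 libraries held 1 and 4 UMIs, too few cells for a ratio under the minimum of 30. In the APOE4 library, the only one with over 34 B lymphocyte-like cells, those cells held 13.5 CPM, against 68.3 CPM from 17 UMIs in the 34 such cells of APOE2, 8 of them in 1 cell.

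Plin3 (ENSMUSG00000024197, chromosome 17, 56277476 to 56292873, minus strand), a coat protein that moves onto new droplets, was nearly level in smooth muscle-like and fibroblast-like cells. Smooth muscle-like cells held 79.5 CPM (77.8 to 81.3), 77.8 CPM (75.9 to 79.7) and 66.2 CPM (64.5 to 67.9), and fibroblast-like cells 103 CPM, 109 CPM and 94.1 CPM. In macrophage-like cells it was at 67.0 CPM (59.7 to 75.1), 43.6 CPM (32.7 to 57.1) and 35.3 CPM (26.3 to 46.5), with a log2 ratio of 0.62 (0.19 to 1.07) for APOE2 to APOE3 and 0.92 (0.49 to 1.38) for APOE2 to APOE4. Pnpla2 (ENSMUSG00000025509, chromosome 7, 141455198 to 141460743, plus strand), the lipase that starts triglyceride release, was the steadiest member, at 71.6 CPM, 72.1 CPM and 60.5 CPM in smooth muscle-like, 28.6 CPM, 33.9 CPM and 27.7 CPM in fibroblast-like and 39.7 CPM, 40.4 CPM and 34.7 CPM in macrophage-like cells. Its log2 ratios in these 3 classes lay between -0.29 and 0.24.

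Counted together, the members past 2-fold were few, and more of them were higher in the APOE2 library. In smooth muscle-like cells 9 of the 10 members had enough UMIs. Of these, 2 were higher in APOE2 than in APOE3 (Fabp4 and Angptl4) and 0 lower, where 3.12% of all genes were higher and 0.893% lower. In APOE4 against APOE3, 0 were higher and 1 was lower (Cd36), with a background of 2.94% and 0.807%. In APOE2 against APOE4, 4 were higher (Lpl, Angptl4, Cd36 and Fabp4) and 0 lower, with a background of 3.32% and 3.61%. The median log2 ratio of the 9 members was 0.13, -0.25 and 0.52 in these 3 comparisons, against 0.04, -0.08 and 0.11 over all genes tested. The 3 comparisons share libraries, so they are not separate evidence. The members were also chosen with earlier results of these data known, so the background share is no test of them.

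In fibroblast-like cells 8 members had enough UMIs. APOE2 against APOE3 had 1 higher (Fabp4) and 0 lower (background 1.67% and 1.47%), APOE4 against APOE3 had 0 higher and 1 lower (Pparg; 1.88% and 0.87%), and APOE2 against APOE4 had 2 higher (Angptl4 and Fabp4) and 0 lower (2.15% and 2.28%). The member medians were -0.08, -0.35 and 0.62, against -0.01, -0.10 and 0.06 over all genes tested. In macrophage-like cells 8, 7 and 8 members had enough UMIs. APOE2 against APOE3 had 2 higher (Slc27a1 and Fabp4) and 0 lower (3.45% and 2.61%), APOE4 against APOE3 had 0 either way (2.66% and 1.74%), and APOE2 against APOE4 had 4 higher (Lpl, Slc27a1, Fabp4 and Plin2) and 0 lower (3.17% and 3.04%). Slc27a1 held 142, 12 and 6 UMIs in macrophage-like cells of APOE2, APOE3 and APOE4, whose totals were 4489237, 1214338 and 1442932 UMIs. It thus reached the UMI minimum only in the pairs with APOE2, where it was highest. In APOE4 against APOE3 it was left out, although its log2 ratio was -1.25 (-2.95 to 0.28). Both Slc27a1 calls are therefore of a gene that passed the minimum only through APOE2. The count of 0 for APOE4 against APOE3 depends on that minimum. The member medians were 0.62, -0.30 and 1.08, against -0.03, -0.03 and 0.00. Several of these calls are of genes whose level over the class was not above that of T lymphocyte-like cells beyond counting error (Fabp4 and Pparg in fibroblast-like cells, Angptl4 and Cd36 in smooth muscle-like cells, and Fabp4 in macrophage-like cells), and Lpl in macrophage-like cells rests on few cells. Per 100 UMIs of Acta2 in the APOE2 library, fibroblast-like and macrophage-like cells held 5.39 and 4.42 UMIs of Fabp4, above the 1.81 of T lymphocyte-like cells. The macrophage class also mixes sets of cells, described next, whose shares differed between the libraries and in 1 of which Lpl and Fabp4 were lower in APOE2 than in APOE4. In the resident set, neither Slc27a1 nor Fabp4 was past 2-fold for APOE2 to APOE3 (0.59 and 0.35).

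**Figure D3:**
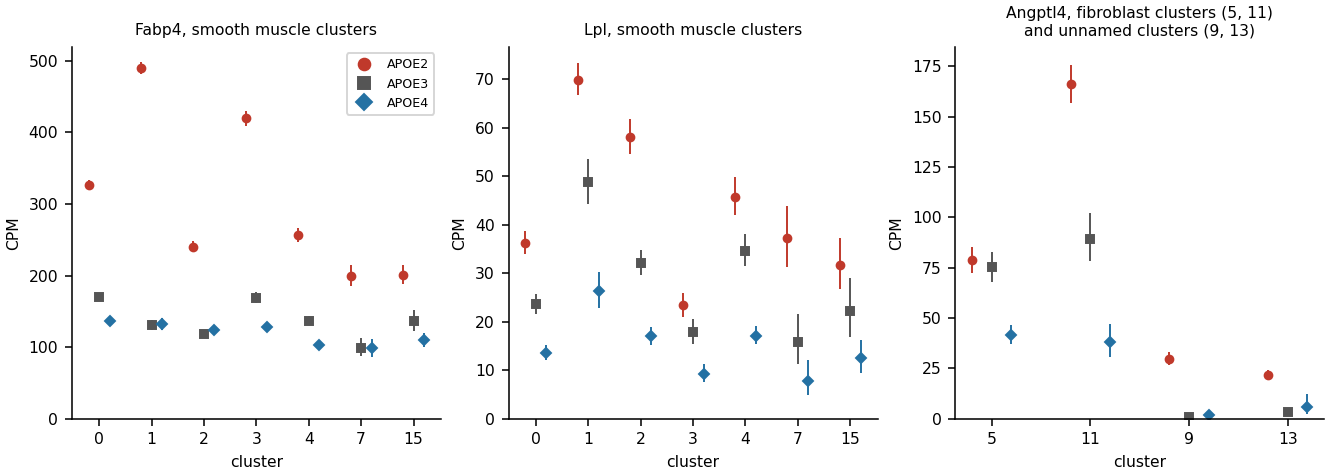
Levels (CPM) of Fabp4 and Lpl in each of the 7 smooth muscle-like clusters, and of Angptl4 in the 2 fibroblast-like clusters (5 and 11) and in clusters 9 and 13, which have no name, by library, with exact Poisson 95% intervals for counting error only. Lpl stands in the order APOE2, APOE3, APOE4 in each smooth muscle-like cluster, and Fabp4 is highest in APOE2 in each, reaching 490 CPM in cluster 1.

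Macrophage-like cells were next divided by markers that hold none of the 10 genes, since macrophages that form foam cells and those that reside in the outer wall differ in lipid genes. A cell with at least 3 UMIs of Trem2, Gpnmb and Spp1 together, and more of these than of Lyve1, Folr2, Cd163 and F13a1, was put in the foam set, and the converse in the resident set. The foam set held 98, 9 and 13 cells (23.4%, 7.76% and 9.92% of the class) and the resident set 218, 84 and 86 (52.2%, 72.4% and 65.6%), and 81 of the 665 cells (12.2%) lay near the dividing line. These sets are ranges of a score and not cell types.

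The resident set, with at least 84 cells in each library, kept the order of the whole class for Plin2. The cells in neither set, only 23 of them in APOE3, did not. The resident set held 632 CPM (599 to 666), 453 CPM (410 to 499) and 290 CPM (258 to 325) of Plin2, with log2 ratios of 0.48 for APOE2 to APOE3, -0.64 for APOE4 to APOE3 and 1.13 for APOE2 to APOE4. Cd36 in the resident set was at 422 CPM (395 to 450), 288 CPM (254 to 326) and 250 CPM (221 to 283), with ratios of 0.55 (0.35 to 0.76), -0.20 (-0.46 to 0.05) and 0.75 (0.55 to 0.96). Cd36 was thus higher in APOE2 within the resident set, although over the whole class it was not. Slc27a1 was at 20.4 CPM, 13.6 CPM and 5.91 CPM, with ratios of 0.59 (-0.35 to 1.65) for APOE2 to APOE3 and 1.79 (0.55 to 3.31) for APOE2 to APOE4. Fabp4 was at 60.4 CPM, 47.4 CPM and 27.6 CPM, with ratios of 0.35 (-0.16 to 0.88) and 1.13 (0.53 to 1.77) in the same comparisons. Neither gene was past 2-fold for APOE2 to APOE3 within this set. Plin3 was at 62.2 CPM, 40.7 CPM and 30.6 CPM. Its ratio was 0.61 (0.07 to 1.19) for APOE2 to APOE3 and 1.02 (0.45 to 1.64), just past 2-fold, for APOE2 to APOE4. Lpl was at 64.0 CPM, 21.5 CPM and 48.3 CPM, with 48.9% of the 141 Lpl UMIs of APOE2 in 1 cell.

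In the APOE2 library several members differed in level between the foam set and the resident set beyond counting error. Median UMIs per cell were 12941.5 in the foam set and 8334.5 in the resident set. The share of all genes that differed between these sets was not computed, so the members are given as values only. In the foam set Plin2 was at 1281 CPM, a log2 ratio to the resident set of 1.02 (0.92 to 1.12), and Lpl at 564 CPM, a ratio of 3.14 (2.88 to 3.41) with 30.4% of its UMIs in 1 cell. Fabp4 was at 238 CPM (214 to 263), above the 112 CPM of T lymphocyte-like cells, with a ratio of 1.98 and 26.1% of its UMIs in 1 cell. Slc27a1 was at 57.6 CPM, a ratio of 1.50, and Pparg at 40.3 CPM, a ratio of 1.47. Cd36 went the other way, at 135 CPM against 422 CPM, a ratio of -1.64 (-1.87 to -1.43). Plin3 was at 88.9 CPM against 62.2 CPM (0.52, 0.17 to 0.87), and for Pnpla2 the ratio was -0.18 (-0.67 to 0.30). The foam sets of the APOE3 and APOE4 libraries held 9 and 13 cells, and in APOE3 1 cell held 98.4% of the Lpl, 81.3% of the Cd36 and 70.2% of the Plin2 UMIs of its set, so their levels are not compared.

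The cells in neither set numbered 102, 23 and 32. Plin2 was at 408 CPM (363 to 458), 593 CPM (492 to 708) and 334 CPM (269 to 410) in them, with APOE3 highest and a log2 ratio of APOE2 to APOE3 of -0.54 (-0.85 to -0.22), opposite in direction to the resident set. APOE2 also lay below APOE4 for Lpl (-1.46, -1.97 to -0.94), Cd36 (-1.09, -1.60 to -0.57), Fabp4 (-1.28, -2.13 to -0.41) and Pparg (-1.16, -1.92 to -0.40). In APOE4 1 cell held 26.5% of the Lpl, 20% of the Cd36, 41.7% of the Fabp4 and 44.8% of the Pparg UMIs of these 32 cells.

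**Figure D4:**
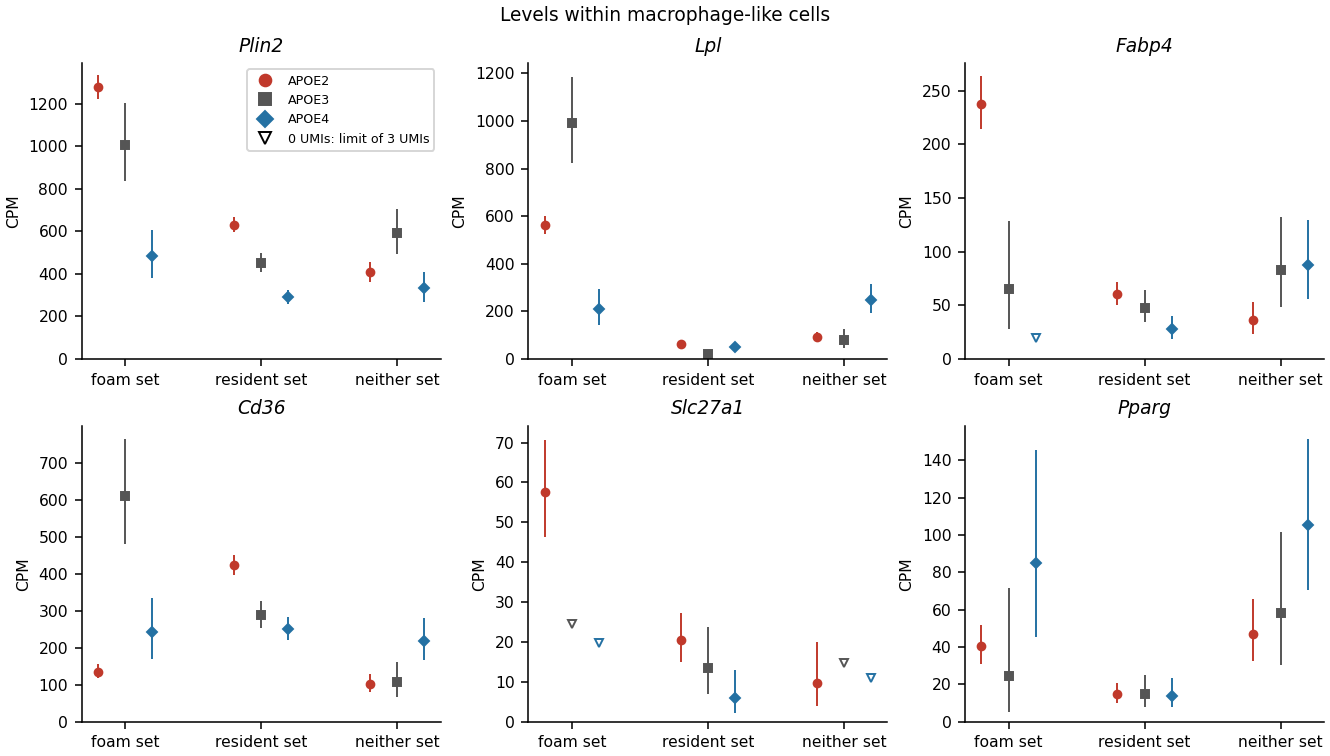
Levels (CPM) of Plin2, Lpl, Fabp4, Cd36, Slc27a1 and Pparg in the macrophage-like cells of the foam set, the resident set and neither set in each library, with exact Poisson 95% intervals for counting error only. Open triangles mark 0 UMIs and stand at the level that 3 UMIs would give. In APOE2 the foam set (98 cells) lies above the resident set (218 cells) for all of these but Cd36, which lies below it, and the foam sets of APOE3 and APOE4 hold 9 and 13 cells.

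Endothelial-like cells are given as values only, because their makeup differed between the libraries. Fabp4 was at 5643 CPM, 2900 CPM and 6069 CPM, Cd36 at 518 CPM, 301 CPM and 323 CPM, Lpl at 276 CPM, 34.5 CPM and 46.1 CPM, Angptl4 at 73.3 CPM, 78.9 CPM and 51.2 CPM, and Pparg at 47.7 CPM, 9.87 CPM and 35.9 CPM. In the APOE3 library 1 cell of 19506 UMIs held 494 of the 588 Fabp4 UMIs, 49 of the 61 of Cd36, 16 of the 18 of Gpihbp1 and 5 of the 7 of Lpl. A single cell likewise held 66.2% of the Fabp4 UMIs of the APOE4 library. At least 3 endothelial markers were found in 114 of 161, 11 of 36 and 18 of 41 cells, and at least 3 Schwann cell markers in 4, 4 and 10 cells. At least 3 smooth muscle markers were found in 112, 32 and 20 cells. The 7 genes of the capillary list summed to 705.5 CPM, 217 CPM and 389.3 CPM, and the 8 of the large artery list to 3629 CPM, 2792 CPM and 3580 CPM. The part of these differences in makeup in the levels of Gpihbp1, Lpl, Cd36 and Fabp4 was not tested. Plin2, at 72.6 CPM, 54.3 CPM and 87.1 CPM, Plin3 and Pnpla2 rested on 5 to 17 UMIs in the APOE3 and APOE4 libraries, as did Slc27a1 on 2 and 4. Pparg rested on 2 and 7 UMIs in these libraries, with both of APOE3 in 1 cell. Lpl rested on 7 and 9 and Angptl4 on 16 and 10.

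**Figure D5:**
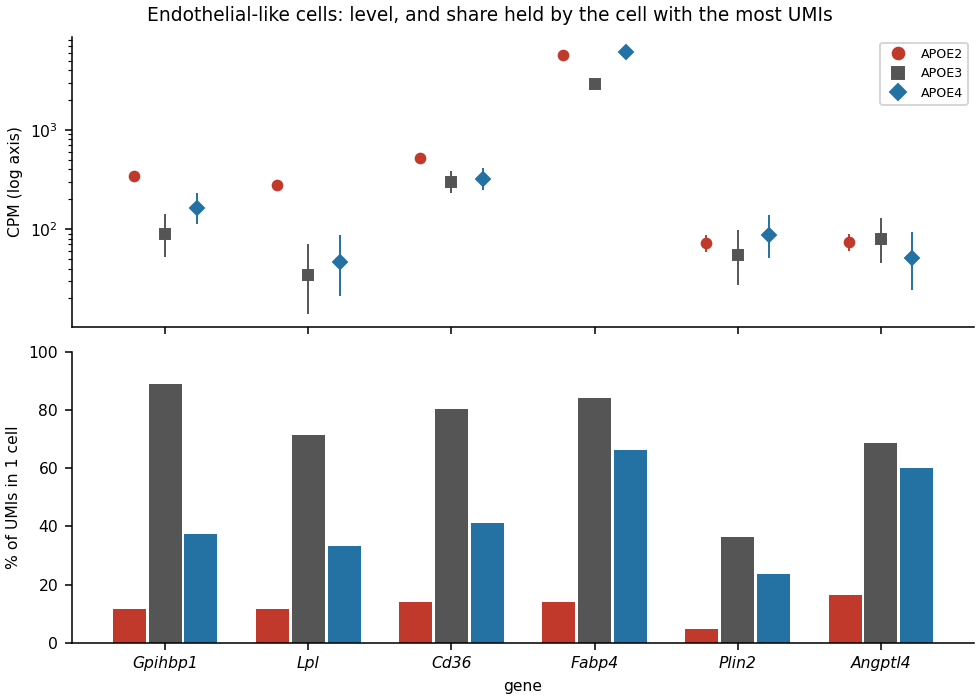
Levels of Gpihbp1, Lpl, Cd36, Fabp4, Plin2 and Angptl4 in endothelial-like cells (upper panel, CPM, log axis) by library, with exact Poisson 95% intervals for counting error only, and the percentage of each gene's UMIs held by the cell with the most of them (lower panel). In the APOE3 library 1 cell held 84.0% of the Fabp4 UMIs and 80.3% of those of Cd36.

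A wider list of 49 other genes of fatty acid uptake, lipoprotein lipolysis, droplet growth and fatty acid oxidation was examined in the same classes. In smooth muscle-like cells 37, 36 and 38 of these had enough UMIs for APOE2 against APOE3, APOE4 against APOE3 and APOE2 against APOE4, and 2, 1 and 2 were higher past 2-fold and 0, 0 and 3 lower. Over all genes 3.12%, 2.94% and 3.32% were higher and 0.893%, 0.807% and 3.61% lower. Their medians were 0.00, -0.06 and 0.11, close to those of all genes tested (0.04, -0.08 and 0.11). Ucp2, a mitochondrial carrier, was at 153, 8 and 14 UMIs, a log2 ratio of APOE2 to APOE3 of 3.92 (2.90 to 5.16), and G0s2, an inhibitor of Pnpla2, at 119, 42 and 41 UMIs (1.16, 0.65 to 1.71). Both were under 2 CPM in every library, and their levels in T lymphocyte-like cells were not set beside them. Ucp2 reached the UMI minimum only in the pairs with APOE2, where it was highest, and was left out of APOE4 against APOE3. Dgat2, which makes triglyceride, was higher in APOE4 than in APOE3 (7.24 CPM against 2.84 CPM, a ratio of 1.35, 1.13 to 1.57). Fabp3, the fatty acid binding protein of muscle, and Cidea, which fuses droplets, were lower in APOE2 than in APOE4, at 40.8 CPM against 82.6 CPM and 10.0 CPM against 23.2 CPM.

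Fibroblast-like cells had 34, 35 and 35 genes of the wider list with enough UMIs, of which 1, 1 and 3 were higher and 2, 1 and 2 lower, with medians of -0.03, -0.28 and 0.23. Over all genes 1.67%, 1.88% and 2.15% were higher and 1.47%, 0.87% and 2.28% lower, with medians of -0.01, -0.10 and 0.06. Acsl4, which joins fatty acids to coenzyme A, was at 39.7 CPM in APOE2 and 18.4 CPM in APOE3 (1.11, 0.84 to 1.38), and Ppargc1a, a coactivator of oxidation genes, at 5.65 CPM and 12.8 CPM (-1.18, -1.63 to -0.75). Fabp3 was lower in APOE2 than in APOE3 as well, at 5.58 CPM and 11.6 CPM (-1.06, -1.51 to -0.61). Dgat2 was higher in APOE4 than in APOE3 (1.22, 0.40 to 2.10) and Ucp2 lower (-1.21, -1.69 to -0.74). Slc27a3, a relative of Slc27a1, was at 14.2 CPM in APOE2 and 7.00 CPM in APOE4 (1.02, 0.62 to 1.43).

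In macrophage-like cells 26, 21 and 26 genes of the wider list had enough UMIs, and 1, 0 and 1 were higher and 2, 1 and 2 lower, with medians of -0.10, -0.20 and 0.03. Over all genes 3.45%, 2.66% and 3.17% were higher and 2.61%, 1.74% and 3.04% lower, with medians of -0.03, -0.03 and 0.00. Fabp5, the fatty acid binding protein that macrophages carry beside Fabp4, was at 748 CPM, 16.5 CPM and 16.6 CPM, which were 3360, 20 and 24 UMIs. Fabp5 thus reached the UMI minimum only in the pairs with APOE2, where it was highest, and was left out of APOE4 against APOE3. It was the only gene of the wider list counted as higher in this class. Its log2 ratio was 5.51 (4.88 to 6.22) for APOE2 to APOE3 and 5.49 (4.92 to 6.14) for APOE2 to APOE4. In the APOE2 library these UMIs lay in 56 of 418 cells, 1 of which held 19.4%, and 3328 of them in 38 of the 98 cells of the foam set, at 2129 CPM against 12.3 CPM in the resident set. Fabp3 was lower in APOE2 than in APOE3 here too, at 32 and 27 UMIs (-1.64, -2.43 to -0.85), as was Lipe, hormone-sensitive lipase (-1.12, -1.75 to -0.46). Acsl1 was lower in APOE4 than in APOE3 (-1.06, -1.54 to -0.60), and Ppard, a relative of Pparg, was lower in APOE2 than in APOE4 (-1.09, -1.50 to -0.68).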

How the data were processed

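Reads had been aligned by Cell Ranger (7.0.1 per the matrix headers) to mm10, and the authors deposited the resulting UMI counts per gene and barcode with no normalization. The 10 genes and the lists were chosen with earlier results of these data known. Cells with at least 200 genes and under 20% mitochondrial UMIs were kept (26757 of 28506). Doublets were not removed, and Scrublet scores (scanpy 1.11.5) served for 1 alternative. Libraries were normalized with sctransform 0.4.2, integrated by canonical correlation in Seurat 5.3.0 (R 4.3.3) over 2993 features that held none of the 10 genes, with 30 components, and clustered by Louvain at resolution 0.8.

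A cluster was named when at least 3 markers of a type passed 10% detection and were raised 2-fold over the other cells, without leading genes against the name. Most cells carry smooth muscle transcripts, so the smooth muscle-like name needed 8 or more of 10 such markers at no less than 50% of their overall level and under 3 raised markers of another type. Of 23 clusters 9 remained unnamed, 4 of these for few UMIs.

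UMIs were summed by class and library. With 1 library a genotype there was no test and no p-value. Exact Poisson, conditional binomial and Clopper-Pearson intervals are at 95%, and a count of 0 allows 3 counts. Ratios and intervals were checked on simulated counts. Libraries held 168310501 (APOE2), 125105151 (APOE3) and 124926887 (APOE4) UMIs. All 10 members were named in each class that had 30 cells or more per library. From the wider list up to 3 genes in each direction past 2-fold were named. For likeness, the 3 genes with the highest Pearson correlation over profiles of classes and libraries were named. Gene positions are from GENCODE vM21 (GRCm38). Python 3.11.15, numpy 2.4.6, scipy 1.17.1 and pandas 2.3.3 were used.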

Additional observations from a re-analysis of the deposited data

Results flagged for a closer look

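The clusters that took no cell type name entered none of the comparisons above, and 7 values of the members in them were past 2-fold between APOE2 and APOE3. They are listed because they lie outside the classes analysed, and the cause was not tested. No background share of genes past 2-fold was computed for these clusters, so the count of 7 is not set against other genes. Summed over all unnamed clusters of the APOE2 library, Angptl4 was at 19.5 CPM and Cd36 at 4.94 CPM. The smooth muscle-like cells of that library held 2.38 CPM and 1.31 CPM. Lpl was at 47.4 CPM in both, and Fabp4 at 333 CPM against 348 CPM.

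Cluster 9 kept 8 of the 10 smooth muscle markers and was led by Spp1, Lcn2, Anxa8, Vcam1, Timp1 and Lum. Its Angptl4 level was 29.9 CPM in APOE2 and 1.06 CPM in APOE3 (353 and 7 UMIs, with 11.3% of the former in 1 cell), a log2 ratio of 4.823. Its Cd36 level was 5.75 CPM and 0.754 CPM (68 and 5 UMIs), a ratio of 2.933.

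Cluster 13 kept all 10 smooth muscle markers but was led by genes of endothelial cells such as Emcn and Vwf and of neutrophils such as Camp and Ngp. Its cells held medians of 55175, 20857 and 23073 UMIs in APOE2, APOE3 and APOE4, and the part of droplets with more than 1 cell was not tested. There Angptl4 was at 21.8 CPM and 3.46 CPM (318 and 31 UMIs), a log2 ratio of 2.654, Cd36 at 3.84 CPM and 0.894 CPM (56 and 8 UMIs), a ratio of 2.103, and Fabp4 at 440.2 CPM and 147.6 CPM, a ratio of 1.577.

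Clusters 8 and 14, both of few UMIs per cell, also held more Fabp4 in APOE2. In cluster 8 it was at 379.7 CPM and 161.8 CPM, a log2 ratio of 1.231, and in cluster 14 at 695.9 CPM and 204.6 CPM, a ratio of 1.766.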

How the results depend on the processing

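No paired analysis was possible because each genotype is 1 library without a replicate number. The alternatives gave 1166 values of 95 ratios, with endothelial-like cells included although their ratios are not reported above. Of these values, 1058 stayed inside the interval of the main ratio, 106 moved outside it and 2 reversed a ratio past 2-fold. Of 285 such values for the 24 ratios past 2-fold, again with endothelial-like cells, 274 were still past it. The reversals were in endothelial-like cells, where Plin3 APOE2 to APOE3 (1.11) was -0.29 by the mean of each cell's CPM, and Fabp4 APOE4 to APOE3 (1.07) was -0.28 without cells that carry smooth muscle transcripts. Merging the libraries without integration and summing all clusters that kept smooth muscle markers were chosen after the data were seen.

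Counts of members past 2-fold moved as follows, and the cause was not tested. The share of all genes passing the same rule is not given for these alternatives, so the counts are not set against other genes. A higher count at 1.5-fold or with no UMI minimum is therefore no result about the members. Classes set cell by cell put 6462, 3707 and 4528 cells in the fibroblast class (1145, 636 and 933 by cluster) and 1459, 334 and 580 in the smooth muscle class (6736, 3762 and 5071), so its counts are of largely other cells under the same names. In smooth muscle-like cells APOE2 against APOE3 went from 2 to 4 when every cluster with smooth muscle markers was summed. APOE4 against APOE3 went from 1 to 2 with a stricter cell filter, without the highest Scrublet scores, at resolution 0.4, by the mean of each cell's CPM, with scaling by the median gene, without the cell with the most UMIs and with no UMI minimum, to 0 with classes set cell by cell and to 4 at 1.5-fold. APOE2 against APOE4 went from 4 to 2 with classes set cell by cell. In fibroblast-like cells APOE2 against APOE3 went from 1 to 2 with classes set cell by cell, at 1.5-fold and with no UMI minimum. APOE4 against APOE3 went from 1 to 0 without the highest Scrublet scores, without cells with smooth muscle transcripts, with scaling by the median gene and without the cell with the most UMIs, to 3 at 1.5-fold and to 2 with no UMI minimum. APOE2 against APOE4 went from 2 to 4 with classes set cell by cell and at 1.5-fold. In macrophage-like cells APOE2 against APOE3 went from 2 to 1 by the mean of each cell's CPM and to 5 at 1.5-fold. APOE4 against APOE3 went from 0 to 1 by that mean, without the cell with the most UMIs and with no UMI minimum, and to 3 at 1.5-fold. APOE2 against APOE4 went from 4 to 2 by that mean.

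In macrophage-like cells Lpl APOE2 to APOE3 (0.91) was 2.56 and APOE4 to APOE3 (-0.32) was 1.55 without the cell with the most UMIs, and Fabp4 APOE2 to APOE3 (1.10) was 3.21 without cells with smooth muscle transcripts. Slc27a1 APOE2 to APOE3 there (1.68) was 0.86 by the mean of each cell's CPM. Cd36 APOE2 to APOE3 in smooth muscle-like cells (0.04) was 1.06 when every cluster with smooth muscle markers was summed. Several endothelial alternatives left under 30 cells and gave no value. The number of cells limits the macrophage-like (116 and 131) and endothelial-like (36 and 41) values of APOE3 and APOE4.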

Other observations

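Across 17 profiles (classes with at least 30 cells, by library), each member was correlated with 15728 genes on the log2(CPM + 1) scale. The profiles of 1 library share its depth and free RNA, and those of 1 class its cell type, so the values are a description. The genes most like Gpihbp1 were Grrp1, Arhgef15 and Klk10 (r from 0.996 to 0.998), and most like Fabp4 were Esam, Dll1 and Mmrn2 (0.935 to 0.953). Most like Cd36 were Afap1l1, Chp2 and Ednrb (0.951 to 0.966), and most like Angptl4 were Ly6c1, Fxyd6 and Cd34 (0.953 to 0.966). For Lpl they were Vwa5a, Nav1 and 2510009E07Rik (0.905 to 0.927), for Plin2 Ccrl2, Mapkapk2 and Abr (0.953 to 0.956), and for Pparg Iffo2, Rasa4 and Bax (0.859 to 0.899). Slc27a1 was most like Ddrgk1, Alg12 and 1110032A03Rik (0.865 to 0.884), Plin3 most like Pik3r2, Slc9b2 and Gabra3 (0.908 to 0.914) and Pnpla2 most like Bnip2, Sbspon and Gmpr (0.835 to 0.864).

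Among the members themselves, the pair most alike was Gpihbp1 and Fabp4 (r = 0.93), followed by Cd36 and Pparg (0.72) and Lpl and Slc27a1 (0.68). The pair least alike was Cd36 and Plin3 (-0.49). Lpl and its anchor Gpihbp1 were at 0.23, and Lpl and its inhibitor Angptl4 at 0.49.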
